A study of Mus musculus with 12 samples.

Results

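The 52 genes described here encode lysosomal enzymes, the vacuolar proton pump (V-ATPase) and the transcription factors TFEB and TFE3, and were taken by name from the 21899 genes in the deposited table. The list was written by function: 10 lysosomal proteases, 10 glycosidases and sulfatases, 8 lipid hydrolases and lumenal cofactors, 6 lysosomal membrane proteins, 2 transcription factors of the MiT/TFE family, and 16 V-ATPase genes, of which 6 belong to the membrane sector V0, 8 to the cytosolic sector V1 and 2 to accessory proteins. The rule names genes and uses no measured value, though it was written with earlier results of these data known. All 52 were found in the table and passed the filter on low counts, as did 11670 genes in all.

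Lysosomes break down proteins, glycans and lipids with acid hydrolases, and the V-ATPase provides the acid by pumping protons across the lysosomal membrane. TFEB and TFE3 enter the nucleus when nutrients are short or lysosomes are stressed, and bind E-box words (the CLEAR element) in the promoters of many lysosomal and autophagy genes. Osteoclasts use the same machinery at the cell surface: a V-ATPase that contains the a3 subunit, encoded by Tcirg1, acidifies the space between cell and bone, and lysosomal proteases are released into it.

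RNA was sequenced from C57BL/6 mouse BMDMs (bone marrow-derived monocytes) in 4 groups of 3 libraries. All groups shared the cytokines that turn these precursors into osteoclasts, M-CSF at 50 ng/ml with RANKL at 100 ng/ml. The MR group had the cytokines only, the dBRD9 group also a degrader of BRD9, a protein of the non-canonical BAF remodeler of chromatin, the JQ1 group also an inhibitor of the BET bromodomain proteins, and the DEX+iBRD9 group also dexamethasone, a glucocorticoid, together with an inhibitor of the BRD9 bromodomain. The comparisons asked how these genes respond to loss of BRD9, to BET inhibition, and to a glucocorticoid with BRD9 inhibition. The labels name a vehicle in the protocol but not for single libraries, and give no age of the mice and no dose or duration of the compounds. DEX and iBRD9 were given only together, and their effects cannot be told apart. Whether the 3 libraries of a group came from separate cultures or mice is not stated, so the p-values measure only the spread between these libraries.

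Libraries held 14875951 to 18067758 counts, and the first principal component (73.2% of the variance) separated JQ1 from the other groups. The second (6.33%) divided the MR group: library 3 lay with the dBRD9 libraries, at -22.5 to -13.5, and libraries 1 and 2 with DEX+iBRD9, at 10.4 to 16.2. The macrophage markers Csf1r and Lyz2 were at 1517 ± 56.2 and 15091 ± 163 CPM in MR (counts scaled to a common library size by the trimmed mean of M values, TMM; SD, n = 3), and of the 10 macrophage and precursor markers 5 rose in JQ1 against MR and 5 fell, the latter led by Fcgr1, from 197 ± 13.1 to 8.98 ± 2.12 CPM. Summed markers of neutrophils were 170.4 to 183 CPM in MR and 18.2 to 28.6 in JQ1, those of stromal cells 18.8 to 24.6 and 10.1 to 11.8, those of B cells 1.03 to 1.77 and 0.0562 to 0.375, and those of T, NK and erythroid cells stayed at or under 0.544 CPM in each library. Hepatocyte transcripts divided the libraries as the second component did outside JQ1: Alb had 738 to 1031 counts in the dBRD9 and JQ1 groups and in MR library 3, and 0 to 2 in the other MR libraries and in DEX+iBRD9. A fit with a term for the libraries with Alb is taken up beside each comparison. Only in MR did libraries of a group differ in Alb, so the term rests on MR library 3 against the other MR libraries. The part of the macrophage marker, neutrophil, stromal and B cell transcripts was not tested.

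The promoters of 43 of the 52 genes were in the RefSeq table used here (mouse build GRCm38.p6, 250 bases before to 50 after the start of transcription), and they were searched on both strands for the E-box word CACGTG and for its longer forms TCACGTG and TCACGTGA, each of which contains the one before. TCACGTGA stood in 7 of the 43 (16.3%), against 1.12% of the 27025 genes in the table (a gene with several starts counted once), TCACGTG in 12 (27.9%, against 4.29%) and CACGTG in 13 (30.2%, against 8.09%). A match is a description of letters and not of a bound site. The words were chosen because many lysosomal genes are known to carry them, and the 27025 genes include genes not tested here. The stretches that hold the word before the start are shown for 6 genes, chosen so that the reader can set them beside the response to JQ1 below: Lamp1, Mcoln1 and Atp6v0b, whose counts rose, Gla and Lgmn, whose counts fell, and Atp6v1a, which did not pass the test. Each runs 5′ to 3′ on the strand of the gene, with the words of 7 or 8 letters in capitals. Lamp1 carried 4 words in chr8:13159079-13159160 (+), Mcoln1 2 words in chr8:3500427-3500500 (+), Atp6v0b 2 in chr4:117887330-117887386 (-), Gla 2 in chrX:134601173-134601253 (-), Lgmn 1 in chr12:102439116-102439162 (-) and Atp6v1a 1 in chr16:44139364-44139411 (-).
Lamp1: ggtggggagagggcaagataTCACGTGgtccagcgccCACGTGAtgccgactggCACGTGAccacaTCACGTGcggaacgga
Mcoln1: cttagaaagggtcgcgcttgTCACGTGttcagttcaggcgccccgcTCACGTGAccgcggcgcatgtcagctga
Atp6v0b: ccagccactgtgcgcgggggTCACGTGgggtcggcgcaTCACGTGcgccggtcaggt
Gla: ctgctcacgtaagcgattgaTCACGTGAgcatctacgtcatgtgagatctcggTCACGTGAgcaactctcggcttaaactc
Lgmn: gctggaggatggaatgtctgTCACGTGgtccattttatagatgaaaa
Atp6v1a: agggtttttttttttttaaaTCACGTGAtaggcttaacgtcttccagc
CACGTGA in the Lamp1 stretch is TCACGTG read on the other strand.

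In MR cells these genes covered a wide range of levels. Measured as FPKM, which divides counts by gene length and by the total of the library and so allows genes to be compared, Psap, the precursor of the saposins that help lipid hydrolases, stood highest at 2669 ± 75.8 (SD, n = 3), followed by the cathepsins Ctsb (1916 ± 10.5), Ctss (1493 ± 39.4), Ctsd (989.6 ± 49.8) and Ctsz (760.3 ± 26.5). The membrane glycoprotein gene Lamp1 reached 568 ± 10.2 FPKM. Among the V-ATPase genes Tcirg1 was highest at 196 ± 8.18 FPKM, above Atp6v0a1, which encodes the a1 form of the same subunit, at 41.5 ± 1.00. Both transcription factors stood low among the 52, Tfe3 at 18.1 ± 0.95 FPKM and Tfeb, the lowest, at 6.26 ± 0.39. Tfeb stood beside the lysosomal calcium channel gene Mcoln1 at 6.57 ± 0.33, from which it differed by less than the SD. By FPKM in MR, Tfe3 stood above 77.4% of all genes tested and Tfeb above 49.8%. Psap and Tfeb were also first and last in dBRD9 and in DEX+iBRD9. In JQ1 cells Ctsb took first place (3936 ± 132 FPKM, against 3521 ± 32.2 for Psap), Ctss moved from rank 3 to 7, Lgmn from 10 to 15, Man2b1 from 27 to 17 and Ppt1 from 39 to 29.

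**Figure D1:**
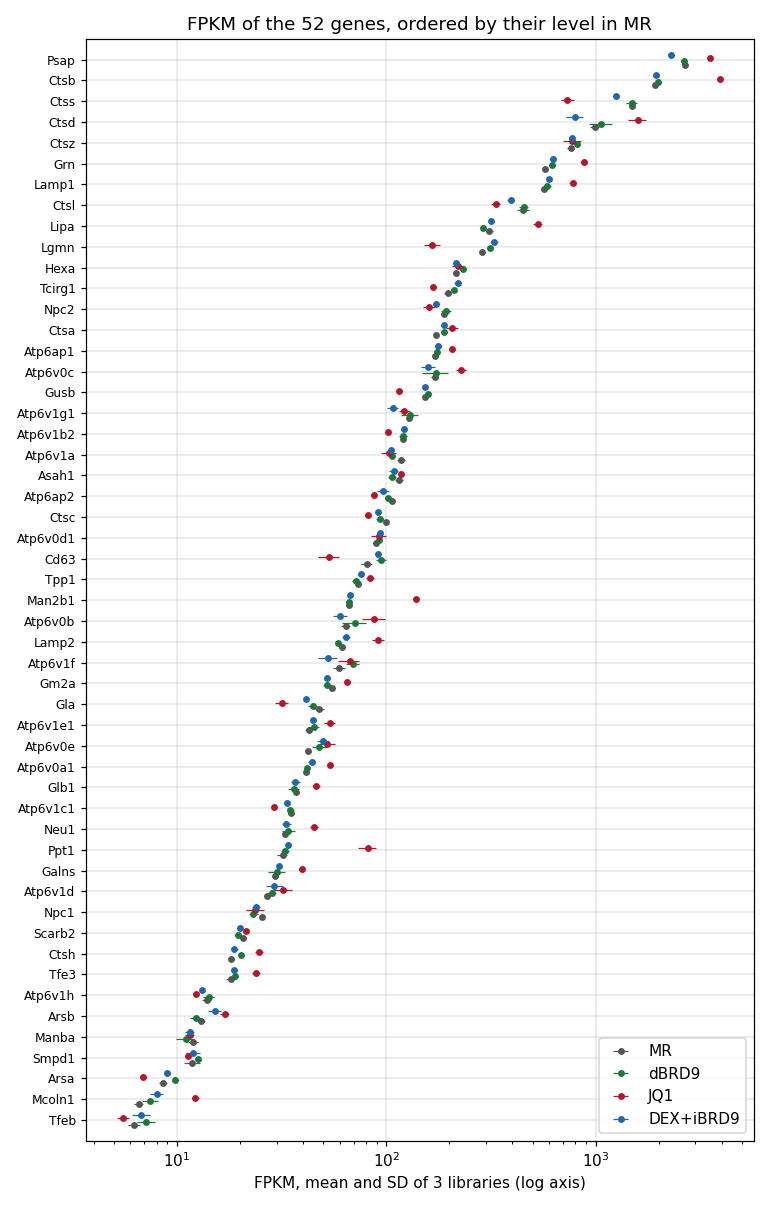
FPKM of the 52 genes (horizontal log axis) as mean and SD of 3 libraries in MR, dBRD9, JQ1 and DEX+iBRD9, ordered by the level in MR. Psap leads at 2669 FPKM in MR and Tfeb is last at 6.26, and the JQ1 points stand apart from the others for Ctsb, Ctss, Man2b1 and Ppt1.

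The 52 genes took 4.63 ± 0.030% of all counts in MR (SD, n = 3), 4.72 ± 0.12% in dBRD9, 4.47 ± 0.046% in DEX+iBRD9 and 6.44 ± 0.15% in JQ1. Mitochondrial transcripts also took a larger share in JQ1, 2.90 ± 0.26% against 1.90 ± 0.054% in MR, and their part in these shares was not tested. Ctsb alone, the gene of the cysteine protease cathepsin B, took 1.16 ± 0.0064% in MR and 2.38 ± 0.080% in JQ1. Without Ctsb the shares were 3.47 ± 0.026% and 4.06 ± 0.073%, and the JQ1 libraries still did not overlap those of MR. In bulk RNA, fewer cells of a type and less RNA per cell cannot be told apart, and counts give shares of a library rather than amounts per cell.

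JQ1 changed most of these genes. Against MR, 32 of the 52 rose and 6 fell at an adjusted p under 0.05 (edgeR quasi-likelihood test with Benjamini-Hochberg adjustment over all 11670 genes), and the median log2 fold change was 0.36. JQ1 changed many genes everywhere: 30.0% of all genes tested rose and 31.6% fell, with a median of -0.01. Among the 5607 genes at least as abundant as the lowest of the 52, 38.9% rose and 29.2% fell, against 61.5% and 11.5% of the 52. The groups' libraries did not overlap for 43 of the 52, against 63.4% of all genes tested. Ctsb, Man2b1, Ppt1 and Mcoln1 changed by more than 2-fold, and each rose.

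The split depends on how libraries are scaled. Scaling by total counts in place of TMM moved the median of all genes in this comparison by -0.19 on the log2 scale, to -0.20. Then 26 of the 52 rose and 15 fell, with a median of 0.17, beside 2216 of all 11670 genes higher and 5170 lower. No gene called under TMM changed its direction. Ctsz, Hexa, Asah1, Scarb2, Atp6v0d1 and Atp6v1f were no longer called, and Ctsc, Arsa, Npc2, Tcirg1, Atp6v1a, Atp6v1b2, Atp6v1c1, Atp6v1h and Atp6ap2 fell. With a term for the libraries with Alb counts, 29 rose and 6 fell, and all 38 calls held without any 1 library of JQ1 or MR.

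**Figure D2:**
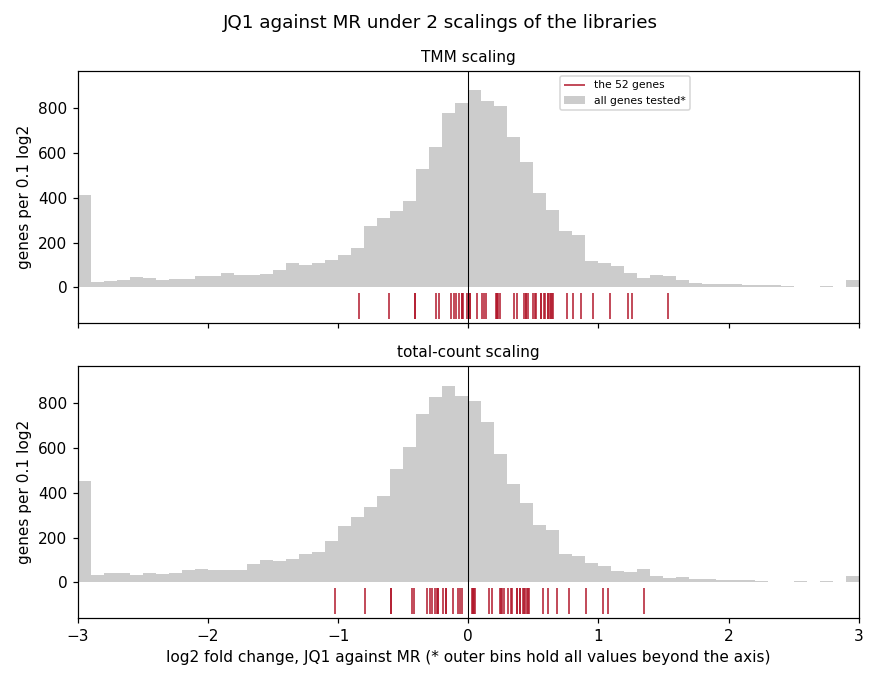
Number of genes per 0.1 log2 (grey bars, all genes tested) by log2 fold change in JQ1 against MR, under TMM scaling and under total-count scaling, with the 52 genes as red lines below. The whole distribution shifts by -0.19 between the scalings, and the 52 genes shift with it, from a median of 0.36 to 0.17.

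The proteases moved in both directions, with 6 higher, 3 lower and 1 not called. Ctsb (ENSMUSG00000021939, chr14:63358384-63383372 in GRCm39) held 11271, 11169 and 11338 CPM in the MR libraries and 25213, 26347 and 27417 in JQ1. The groups lay far apart, at a log2 fold change of 1.23 ± 0.046 (SE; edgeR adjusted p = 9.9e-20), a 2.34-fold rise. The aspartic protease gene Ctsd rose by 0.87 ± 0.094, the aminopeptidase gene Ctsh by 0.63 ± 0.065, the carboxypeptidase genes Ctsa and Ctsz by 0.44 ± 0.051 and 0.21 ± 0.056, and the tripeptidyl peptidase gene Tpp1 by 0.37 ± 0.052.

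Ctss, which encodes cathepsin S, the protease that trims the invariant chain of MHC class II, went the other way. Its gene (ENSMUSG00000038642, chr3:95433963-95463717) held 1912, 2001 and 1994 CPM in MR and 1010.1, 1104 and 1186 in JQ1. No library overlapped, and the log2 fold change of -0.84 ± 0.057 (edgeR adjusted p = 1.3e-13) left 0.559 of the MR level. Lgmn, the gene of the asparaginyl endopeptidase legumain, which processes other cathepsins, fell by 0.61 ± 0.059 on the log2 scale, from 648 ± 3.68 to 425 ± 40.8 CPM, and the cathepsin L gene Ctsl by 0.25 ± 0.055. Ctsc, the dipeptidyl peptidase that activates granule proteases, was at -0.11 ± 0.050 (edgeR adjusted p = 0.065) and did not pass.

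Of the glycosidases and sulfatases 6 rose, 2 fell and 2 did not pass. Man2b1, which encodes lysosomal alpha-mannosidase (ENSMUSG00000005142, chr8:85809885-85825361), held 513, 505 and 529 CPM in MR and 1266, 1219 and 1212 in JQ1. These values do not overlap, and the log2 fold change was 1.26 ± 0.049 (edgeR adjusted p = 2.6e-19). The sialidase gene Neu1 rose by 0.65 ± 0.063, the sulfatase genes Galns and Arsb by 0.61 ± 0.068 and 0.56 ± 0.071, the beta-galactosidase gene Glb1 by 0.51 ± 0.063 and the hexosaminidase gene Hexa by 0.22 ± 0.054.

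Gla, the alpha-galactosidase A gene (ENSMUSG00000031266, chrX:133488891-133501904), fell. It held 161, 147 and 149 CPM in MR and 123, 106 and 114 in JQ1, with no overlap, at a log2 fold change of -0.41 ± 0.064 (edgeR adjusted p = 2.6e-06). The beta-glucuronidase gene Gusb fell by 0.23 ± 0.049. The beta-mannosidase gene Manba (0.13 ± 0.074) and the arylsulfatase A gene Arsa (-0.13 ± 0.087) did not pass.

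Of the lipid hydrolases and cofactors 6 rose and none fell. Ppt1 had the largest change of the 52. It encodes a thioesterase that removes palmitate from proteins (ENSMUSG00000028657, chr4:122730010-122754948), and held 108, 113 and 121 CPM in MR and 302, 317 and 372 in JQ1. The lowest JQ1 library was over the highest MR library by more than the spread in either group, at a log2 fold change of 1.53 ± 0.068 (edgeR adjusted p = 6.0e-18), a 2.90-fold rise. Lipa, the acid lipase that frees cholesterol and fatty acids, rose by 0.96 ± 0.049, the progranulin gene Grn by 0.80 ± 0.049, Psap by 0.59 ± 0.046, the GM2 activator gene Gm2a by 0.43 ± 0.054 and the acid ceramidase gene Asah1 by 0.22 ± 0.055. The acid sphingomyelinase gene Smpd1 (0.12 ± 0.086) and Npc2, which hands cholesterol to the membrane transporter NPC1 (-0.04 ± 0.055), did not pass.

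Among the membrane proteins Mcoln1, the gene of the lysosomal calcium channel TRPML1 (ENSMUSG00000004567, chr8:3550452-3565253), held 47.3, 50.8 and 46.4 CPM in MR and 106, 102 and 99.7 in JQ1. No library overlapped, at a log2 fold change of 1.09 ± 0.076 (edgeR adjusted p = 3.1e-13). The glycoprotein genes Lamp2 and Lamp1, which line the lysosomal membrane, rose by 0.76 ± 0.055 and 0.64 ± 0.050, and Scarb2, the receptor that carries glucocerebrosidase, by 0.24 ± 0.057. Cd63, a tetraspanin of late endosomes (ENSMUSG00000025351, chr10:128731528-128748709), fell, from 308, 281 and 276 CPM in MR to 196, 208 and 249 in JQ1. The groups did not overlap, although JQ1 library 3 came nearer to MR than the others, and the log2 fold change was -0.41 ± 0.068 (edgeR adjusted p = 8.8e-06). The cholesterol transporter gene Npc1 was at 0.07 ± 0.060 and did not pass.

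The transcription factors differed from each other. Tfe3 (ENSMUSG00000000134, chrX:7628761-7641444) held 158, 157 and 173 CPM in MR and 247, 250.2 and 234 in JQ1. Its groups did not overlap, and it rose by 0.58 ± 0.057 on the log2 scale (edgeR adjusted p = 3.9e-10). Tfeb (ENSMUSG00000023990, chr17:48047837-48103348) held 36.8, 33.9 and 32.6 CPM in MR and 31.9, 35.0 and 37.2 in JQ1, groups that overlapped. Its log2 fold change was 0.01 ± 0.097 (edgeR adjusted p = 0.93), with a 95% interval of -0.19 to 0.21, and -0.17 under total-count scaling.

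**Figure D3:**
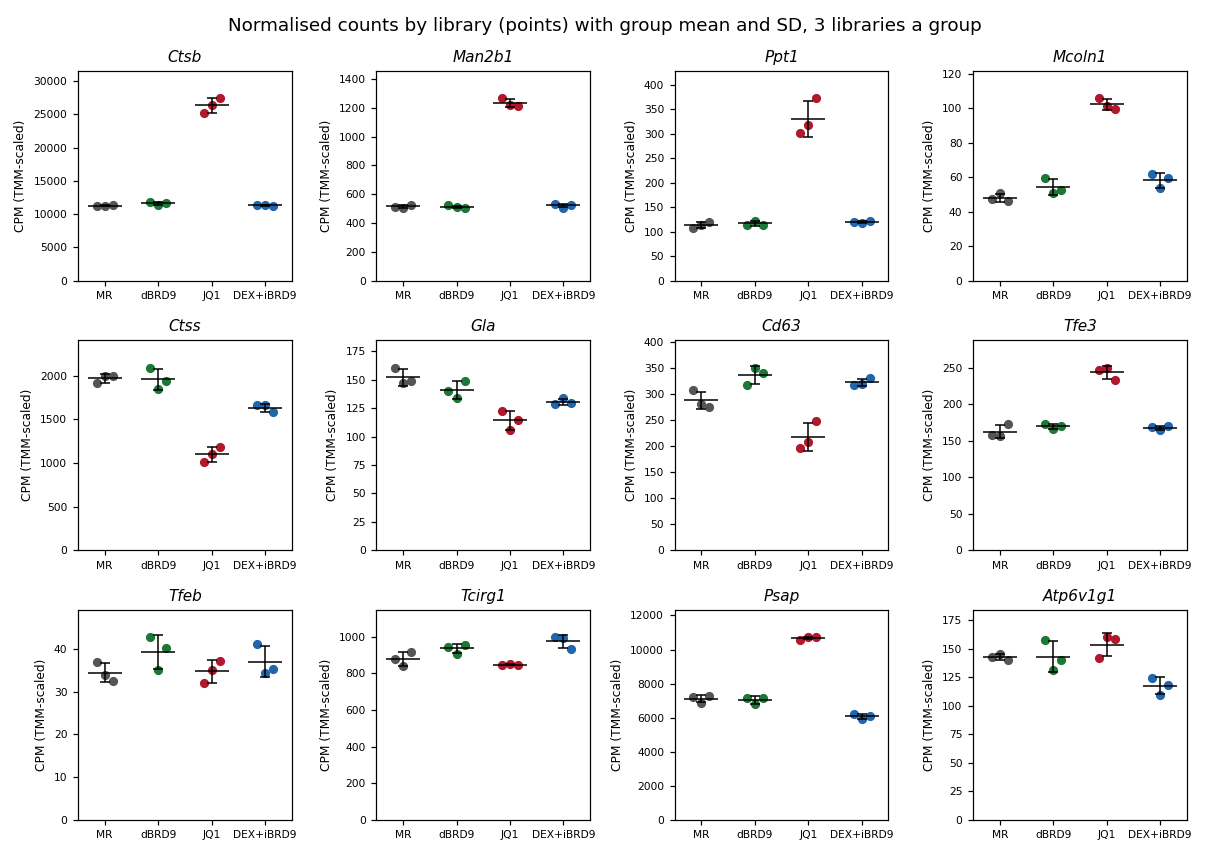
CPM (TMM-scaled, vertical axis from 0) of 12 genes in each library, as points by group with the mean and SD of 3 libraries. Ctsb, Man2b1, Ppt1, Mcoln1 and Tfe3 are higher in all JQ1 libraries than in any MR library, Ctss, Gla and Cd63 are lower, and Tfeb and Tcirg1 overlap.

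The V-ATPase genes are given by sector. In V0, which forms the proton channel, 5 of 6 rose, none fell, and the median log2 fold change was 0.53. In V1, which hydrolyses ATP, 3 of 8 rose, none fell, and the median was 0.06; the difference between the sectors was not tested. Under total-count scaling 4 of the V0 genes rose and 1 fell, and 2 of the V1 genes rose and 4 fell, so the direction for V1 turns with the scaling. The accessory gene Atp6ap1, which encodes Ac45 (ENSMUSG00000019087, chrX:73340697-73348328), held 508, 489 and 512 CPM in MR and 679.8, 696 and 699.6 in JQ1, a rise of 0.46 ± 0.048 without overlap (edgeR adjusted p = 2.2e-09), and Atp6ap2, the (pro)renin receptor gene, was at -0.10 ± 0.056.

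Atp6v0b, a proteolipid of the V0 ring (ENSMUSG00000033379, chr4:117741522-117744567), had the largest change of the sector. It held 121, 133 and 128 CPM in MR and 169, 218 and 208 in JQ1, and rose by 0.64 ± 0.096 (edgeR adjusted p = 1.5e-05) with no overlap. The other ring gene Atp6v0c rose by 0.61 ± 0.079, Atp6v0a1 by 0.56 ± 0.052, Atp6v0e by 0.49 ± 0.070 and Atp6v0d1 by 0.23 ± 0.062. Tcirg1, which carries the osteoclast's a3 subunit (ENSMUSG00000001750, chr19:3946050-3957917), did not follow: it held 878, 839 and 916 CPM in MR and 846, 851 and 843 in JQ1. These ranges overlap, and the log2 fold change was -0.05 ± 0.050 (edgeR adjusted p = 0.37, 95% interval -0.15 to 0.05). It was -0.24 under total-count scaling, where it passed.

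In V1 the stalk gene Atp6v1e1 (ENSMUSG00000019210, chr6:120768646-120799807) held 166, 167 and 177 CPM in MR and 232, 236 and 264 in JQ1. It rose by 0.52 ± 0.061 (edgeR adjusted p = 1.5e-08) without overlap. The genes of the central shaft, Atp6v1d and Atp6v1f, rose by 0.44 ± 0.074 and 0.35 ± 0.086. The catalytic subunit gene Atp6v1a (-0.01 ± 0.055), its partner Atp6v1b2 (-0.05 ± 0.051), and Atp6v1c1 (-0.07 ± 0.054), Atp6v1g1 (0.11 ± 0.068) and Atp6v1h (0.02 ± 0.060) did not pass, and the standard errors were about as small as those of the genes that rose.

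**Figure D4:**
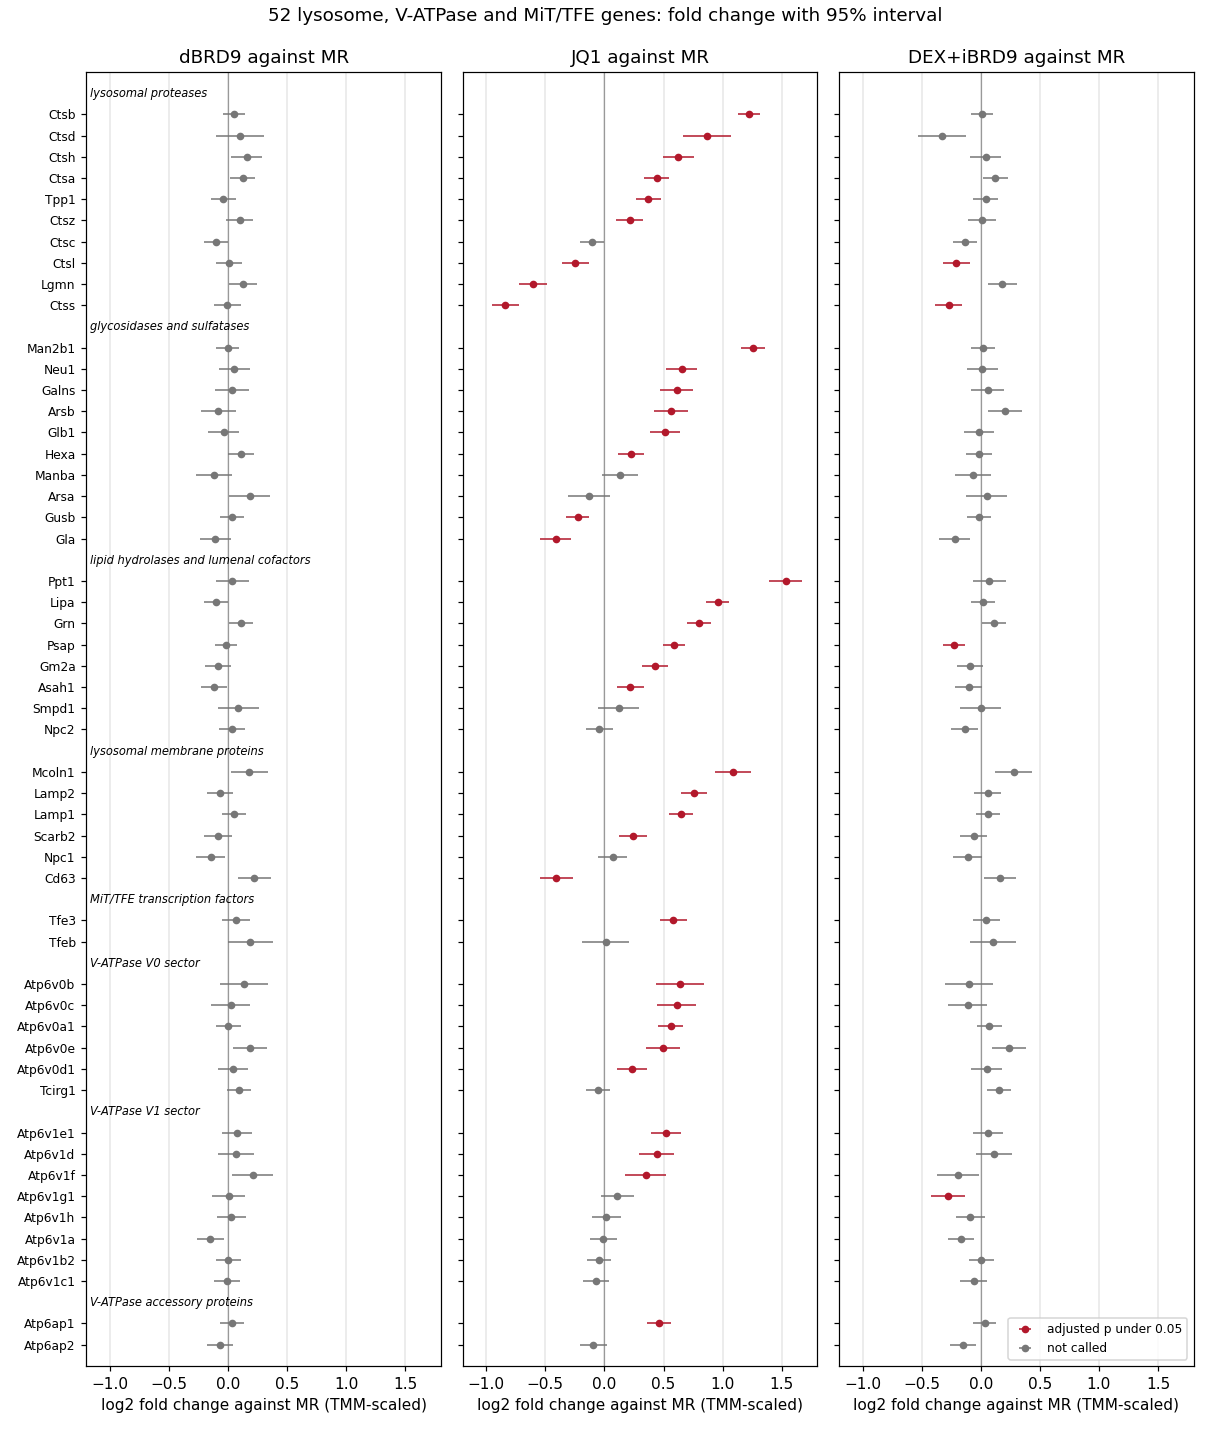
Log2 fold change of the 52 genes (points) with 95% intervals (bars) in dBRD9, JQ1 and DEX+iBRD9, each against the same MR libraries, grouped by role, with genes at an adjusted p under 0.05 in red. In JQ1 32 genes stand to the right of 0 and 6 to the left in red, in dBRD9 there is no red point, and in DEX+iBRD9 there are 4, all to the left.

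Genes with and without the E-box word in the promoter both responded to JQ1. Of the 12 genes with TCACGTG in the promoter window 8 rose and 2 fell (median log2 fold change 0.47), and of the 31 without it 20 rose and 4 fell (median 0.37). The word stood before genes that rose (the Lamp1, Mcoln1 and Atp6v0b stretches above), genes that fell (Gla and Lgmn) and a gene that did not pass (Atp6v1a). No test was made of this difference.

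dBRD9 called none of the 52 genes against MR (edgeR), where 0.514% of all genes rose and 1.12% fell. Among the 5607 genes at least as abundant as the lowest of the 52, 0.892% rose and 1.96% fell. DESeq2 also called none, and the median log2 fold change was 0.03. Of the 52, 5 gained a call in some alternative, such as the fit of the 6 libraries compared, where the share over all genes was not taken. An unadjusted p under 0.05 (edgeR) was found for 14 of the 52, beside 1937 of all 11670 genes. The 95% intervals of all 52 lay within a 1.5-fold change in either direction, from -0.27 to 0.38 at their ends. The groups did not overlap for 19 of the 52, against 25.0% of all genes tested. Cd63 was nearest to a call, at 0.22 ± 0.067 (edgeR adjusted p = 0.091), with 318, 351 and 341 CPM in dBRD9 and 308, 281 and 276 in MR.

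With the term for the libraries with Alb none of the 52 was called either. The transcription factor genes and Tcirg1 did not pass in dBRD9. Tfeb held 42.7, 35.0 and 40.2 CPM (0.19 ± 0.095, edgeR adjusted p = 0.32), with 1 library inside the range of MR. Tfe3 held 173, 166 and 170.5 (0.07 ± 0.057, adjusted p = 0.61 by edgeR) and Tcirg1 946, 906 and 954 (0.09 ± 0.050, adjusted p = 0.36 by edgeR), and both overlapped MR. With the Alb term the log2 fold changes were 0.27 for Tfeb, -0.021 for Tfe3 and 0.030 for Tcirg1. Fold changes over all genes followed gene length in this comparison, with a median of 0.10 among the shortest 2335 genes and -0.08 among the longest 2334. The 9 of the 52 among the shortest had a median of 0.10 and the 5 among the longest -0.004. The part of length in these values was not tested.

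DEX+iBRD9 lowered 4 of the 52 genes against MR and raised none, where 1.36% of all genes fell and 0.591% rose (edgeR). Among the 5607 genes at least as abundant as the lowest of the 52, 2.1% fell and 1.11% rose, against 7.69% and 0% of the 52. DESeq2 called 1 higher and 6 lower of the 52, and its share over all genes was not taken. In edgeR 19 of the 52 had an unadjusted p under 0.05, beside 1823 of all 11670 genes. The median log2 fold change was 0.01. Psap (ENSMUSG00000004207, chr10:60113431-60138380), the highest of the 52 by FPKM in MR, held 7223, 6863 and 7256 CPM in MR and 6224, 5944 and 6076 in DEX+iBRD9, with no overlap, and fell by 0.23 ± 0.046 on the log2 scale (edgeR adjusted p = 0.0073). Ctss held 1912, 2001 and 1994 CPM in MR and 1659.8, 1659 and 1578, again without overlap, and fell by 0.27 ± 0.056 (edgeR adjusted p = 0.0082). These are changes of -14.5% for Psap and -17.1% for Ctss.

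Atp6v1g1, which encodes a stalk subunit of V1 (ENSMUSG00000039105, chr4:63462886-63471651), held 142, 145 and 139.6 CPM in MR and 124, 109.6 and 118 in DEX+iBRD9. It fell by 0.28 ± 0.069 (edgeR adjusted p = 0.028), with no overlap. Ctsl fell by 0.21 ± 0.055 (edgeR adjusted p = 0.043). Tcirg1 held 997, 992 and 933 CPM, all above MR, at 0.15 ± 0.050 (edgeR adjusted p = 0.12), Mcoln1 was at 0.28 ± 0.077 (edgeR adjusted p = 0.057), Tfeb, with 41.1, 34.4 and 35.3 CPM, at 0.10 ± 0.095 (edgeR adjusted p = 0.66) and Tfe3, with 169, 165 and 170.5, at 0.05 ± 0.057 (edgeR adjusted p = 0.75), and none of these passed.

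The 4 calls changed with the libraries in the fit. All 4 were also called in the fits of 6 and of 9 libraries, and 3 of them without DEX+iBRD9 library 1, where 4 of the 52 were lower. The fits of 6 and of 9 libraries also called further genes of the 52, some higher, Tcirg1 among them, and some lower. Over all alternatives 13 of the 48 genes not called gained a call somewhere, and the share over all genes was not taken for most of them. Without MR library 3, the MR library with hepatocyte transcripts, none of the 52 was lower at an adjusted p under 0.05 (edgeR). None was with a term for those transcripts either. That is in effect the same check, since no other library compared held them in number. None was lower without DEX+iBRD9 library 3. Without MR library 1, MR library 2 or DEX+iBRD9 library 2, 1 was lower. The fold changes moved little: Psap ranged from -0.25 to -0.21 over the alternatives, Ctss from -0.29 to -0.25, Atp6v1g1 from -0.32 to -0.23 and Ctsl from -0.25 to -0.16.

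Against dBRD9, JQ1 raised 32 of the 52 genes and lowered 8, where 30.4% of all genes rose and 32.8% fell (edgeR). Among the 5607 genes at least as abundant as the lowest of the 52, 40.4% rose and 30% fell, against 61.5% and 15.4% of the 52. Total-count scaling moved the median of all genes by -0.19. Under it 27 of the 52 rose and 15 fell, beside 2175 of all 11670 genes higher and 5261 lower. All JQ1 and dBRD9 libraries held Alb transcripts, so the Alb term cannot separate these groups. Its counts, again 32 and 8, therefore decide nothing here. The largest falls were those of Ctss (-0.83 ± 0.057), Lgmn (-0.73 ± 0.059) and Cd63 (-0.63 ± 0.068), which stood at 1958 ± 123, 705 ± 27.9 and 337 ± 16.9 CPM in dBRD9. Arsa (-0.31 ± 0.087) and Tcirg1 (-0.14 ± 0.050, edgeR adjusted p = 0.014) also fell here, with no overlap between the libraries. The 95% interval of Tcirg1 against MR contains this value, and MR and dBRD9 were each compared with the same JQ1 libraries.

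DEX+iBRD9 differed from dBRD9 in 7 of the 52 genes, 6 lower and 1 higher, where 1.72% and 0.634% of all genes were called (edgeR). Among the 5607 genes at least as abundant as the lowest of the 52, 2.51% were lower and 1.19% higher, against 11.5% and 1.92% of the 52. Ctsd (-0.43 ± 0.094, adjusted p = 0.034 by edgeR), Atp6v1f (-0.40 ± 0.086), Atp6v1g1 (-0.28 ± 0.068), Ctss (-0.26 ± 0.056), Ctsl (-0.21 ± 0.055) and Psap (-0.21 ± 0.046) were lower and Arsb was higher (0.29 ± 0.071). All dBRD9 libraries and no DEX+iBRD9 library held Alb transcripts in number, so these transcripts and the groups cannot be told apart within the comparison. With the Alb term, which then rests on the MR libraries, none of the 7 was called and each kept its direction. Of 7 neutrophil markers tested 3 were lower in DEX+iBRD9. Fold changes followed gene length here too, with a median of -0.12 among the shortest 2335 genes and 0.08 among the longest 2334, and 4 of the 6 lower genes (Ctsd, Atp6v1f, Atp6v1g1 and Ctss) were among the shortest. The part of these in the calls was not tested. Without dBRD9 library 1, DEX+iBRD9 library 2 or DEX+iBRD9 library 3 none of the 52 was called in either direction (edgeR), and without dBRD9 library 3 only 1, lower. Ctsd held 2746, 2117 and 2408 CPM in the dBRD9 libraries, the widest relative spread among its 4 groups, with dBRD9 library 1 above the others.

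Genes that share these functions but are not among the 52 were described from 6 further lists. The background in JQ1 against MR was 30.0% of all genes higher and 31.6% lower. Under total-count scaling it was 2216 of 11670 genes higher and 5170 lower. Autophagy genes rose most often of these lists: 23 of 30 rose and none fell, with a median log2 fold change of 0.47 (under total-count scaling 19 and 1). The kinase genes that start autophagy, Ulk2 and Ulk1, rose by 1.46 ± 0.075 and 1.36 ± 0.084, and Map1lc3b, whose product LC3B coats autophagosomes, by 1.22 ± 0.066, from 83.3 ± 2.93 to 194 ± 13.6 CPM. Of 24 genes for sorting to the lysosome 16 rose and 4 fell, but 4 rose and 7 fell under total-count scaling. The sorting receptor gene Sort1 rose by 2.11 ± 0.072, from 68.2 ± 3.24 to 294 ± 30.8 CPM, Gnptg, a subunit of the enzyme that makes the mannose 6-phosphate tag, by 1.05 ± 0.11, and the adaptor gene Gga1 by 0.65 ± 0.062. Both mannose 6-phosphate receptor genes fell, Igf2r by 0.77 ± 0.084 and M6pr by 0.45 ± 0.053, as did Nagpa, the enzyme that uncovers the tag, by 0.51 ± 0.076; each direction named in this paragraph held under total-count scaling.

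Among 43 other lysosomal hydrolases and membrane proteins 19 rose and 14 fell (15 and 18 under total-count scaling). The sulfamidase gene Sgsh rose by 2.07 ± 0.10, Creg1, a secreted lysosomal glycoprotein, by 1.31 ± 0.054 and the fucosidase gene Fuca1 by 1.18 ± 0.058. The collagen-degrading protease gene of osteoclasts, Ctsk, fell by 2.35 ± 0.26, from 8.11 ± 1.52 to 1.60 ± 0.65 CPM, the hyaluronidase gene Hyal1 by 1.73 ± 0.26 and the acid phosphatase gene Acp2 by 0.81 ± 0.053. Of 26 genes listed for nutrient control of TFEB 12 rose and 6 fell (7 and 13 under total-count scaling). The list also holds the transcription factor genes Mitf, Tfec and Zkscan3. The GTPase gene Rraga rose by 0.73 ± 0.070, the calcineurin gene Ppp3ca by 0.67 ± 0.062 and Tsc2 by 0.57 ± 0.080. The GTPase genes Rragd and Rragb fell by 1.97 ± 0.26 and 1.82 ± 0.45, to 1.42 ± 0.46 and 0.53 ± 0.16 CPM, and Mitf, another member of the MiT/TFE family, by 0.90 ± 0.075, from 128 ± 2.76 to 68.6 ± 7.02 CPM.

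Among the other V-ATPase genes Atp6v0d2, the d2 subunit gene that osteoclasts express, fell by 2.61 ± 0.15, from 28.3 ± 2.52 to 4.61 ± 1.13 CPM (edgeR adjusted p = 2.8e-15), while Atp6v0d1, for the d1 subunit, rose as given above, but was not called under total-count scaling. Of 12 further V-ATPase isoforms and assembly factors 3 rose and 3 fell (3 and 5 under total-count scaling): Rogdi, Dmxl2 and Oxr1 by 1.17 ± 0.14, 0.85 ± 0.10 and 0.59 ± 0.066, and, beside Atp6v0d2, the V0 assembly factor genes Vma21 and Ccdc115, which fell by 1.43 ± 0.076 and 0.19 ± 0.084. Of 11 genes for secretion of acid and enzymes by osteoclasts, a list that shares genes with the others, 3 rose (Rab3d by 0.71 ± 0.072, Ostm1 by 0.53 ± 0.064, Plekhm1 by 0.49 ± 0.061) and 7 fell, with the metalloprotease genes Mmp9 and Mmp14 at -2.56 ± 0.083 and -2.56 ± 0.16 and a median of -0.56. The counts were the same under total-count scaling.

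**Figure D5:**
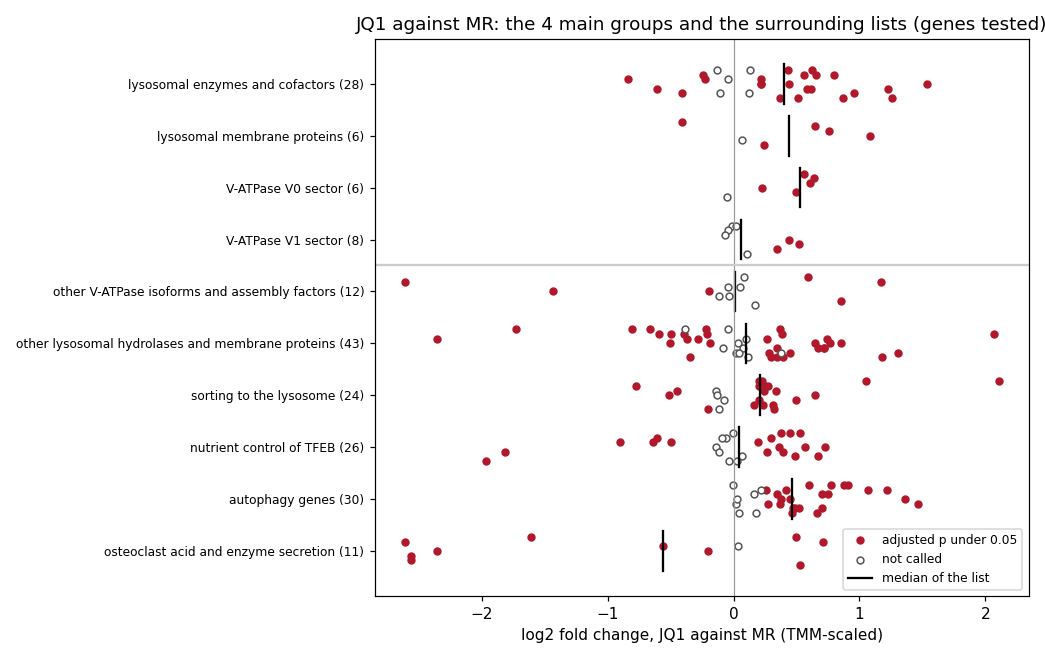
Log2 fold change in JQ1 against MR (horizontal axis) of single genes in the 4 main groups of the 52 (above the grey line) and in 6 further lists (below it), with called genes in red, others open and the median of each list as a black line. Of the 30 autophagy genes 29 lie above 0, with a median of 0.47, and the osteoclast secretion list has a median of -0.56.

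Of the 142 genes tested in these 6 lists dBRD9 called 3 against MR, all lower, beside 1.12% lower and 0.514% higher over all genes: Vma21 (-0.36 ± 0.072, edgeR adjusted p = 0.012), the carboxypeptidase gene Prcp (-0.33 ± 0.070, edgeR adjusted p = 0.015) and Mitf (-0.37 ± 0.073, edgeR adjusted p = 0.011), with no overlap of libraries. Total-count scaling added 1 higher call. With the Alb term, without MR library 1 and without MR library 2, none of the 142 was called (edgeR, with 9, 21 and 23 at an unadjusted p under 0.05). The term leaves in effect MR library 3 as the reference here, so its lack of calls decides nothing. Without dBRD9 library 1, 1 was called. Against MR, DEX+iBRD9 called 3 lower and 4 higher of the 142, beside 1.36% and 0.591% of all genes. It lowered Vma21 (-0.49 ± 0.072, from 160.0 ± 6.19 to 114 ± 7.61 CPM), Prcp (-0.40 ± 0.070) and Ctsk (-1.04 ± 0.22, from 8.11 ± 1.52 to 3.92 ± 0.70 CPM) and raised Hgsnat, the acetyltransferase that acts on heparan sulfate (0.49 ± 0.054, from 163 ± 3.02 to 229 ± 2.26 CPM), the lysosomal membrane protein gene Laptm5 (0.18 ± 0.047), Gga1 (0.24 ± 0.062) and Mmp9 (0.30 ± 0.071). With the Alb term, here in effect the same check as leaving out MR library 3, 3 of these 7 calls held, those of Vma21, Prcp and Hgsnat. Leaving out any other library of the comparison kept 4 or 5. Both comparisons share the MR libraries. Against dBRD9, DEX+iBRD9 had more of Hgsnat (0.47 ± 0.054) and of Gnptab, the catalytic part of the tagging enzyme (0.29 ± 0.061), and less of Lamtor4 (-0.38 ± 0.10), a subunit of the Ragulator complex on the lysosome. None of these 3 was called with the Alb term, and 1 was without dBRD9 library 1 or 3 or DEX+iBRD9 library 2 or 3.

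Some counts may hold reads of neighbours, since the sources used here do not say whether counting used strand. In the GENCODE annotation 19 of the 52 genes overlap another coding gene, among those given in full Ctsb with Fdft1, Ppt1 with Cap1, Gla with Hnrnph2 and Rpl36a, and Atp6v1e1 with Slc25a18. Cd63 and Atp6v0c have annotated pseudogene copies whose reads may be shared.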

How the data were processed

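RNA of 12 libraries was measured, 3 in each of the 4 groups named by the labels. Per the labels and the submitters' processing notes the authors trimmed reads with cutadapt, aligned them to GRCm39 with HISAT2 and counted them with HTSeq; the strand setting is not given in the sources used here. The deposited table holds raw counts per gene and, made by the authors from the same counts, FPKM: in 8258 genes of 100 or more counts per library, counts divided by the library total and by FPKM gave 1 length per gene in all libraries (largest relative deviation 9.77e-15). FPKM was used for levels between genes, and counts for all tests. Of 21899 genes 199 had no match in the GENCODE mouse annotation.

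Counts were analysed in R 4.3.3 with edgeR 4.0.16 (filterByExpr with a minimum count of 10 and a minimum total of 15, TMM, 1 robust quasi-likelihood fit of the 12 libraries with 8 residual df), with p adjusted by Benjamini and Hochberg over 11670 genes and calls at an adjusted p under 0.05. The biological coefficient of variation was 7.29%. The script was tested on simulated data. Replicates of a group differed by more than counting noise (chi-square per degree of freedom 3.55 to 15.7), so none was counted as a copy. Figures were drawn with Python 3.11.15, pandas 2.3.3 and matplotlib 3.10.9.

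The genes, the lists and the alternatives were chosen with earlier results of these data known. Given in full were Tfeb, Tfe3 and Tcirg1 and, for each role and each comparison with MR, the called gene with the largest change in each direction, and from each further list the 3 called genes with the largest change in each direction. The other genes were given by fold changes and counts. CPM of Lgmn, and of Cd63 and Ctsd in dBRD9, were added after their values were seen. Libraries were numbered within a group in accession order. Alternatives were DESeq2 size factors, total-count scaling, the filter left out or made stricter (3 libraries at 1 CPM, mean count of 20), the Wald test of DESeq2 1.42.0, fits of 6 or 9 libraries, the threshold of the study (unadjusted p under 0.05 and a fold of 1.2), a model term marking 7 libraries whose Alb count reached 100, and leaving out each library. The Alb term for comparisons with dBRD9, and all alternatives for the further lists, were added after seeing the data. Promoter sequences are from RefSeq (GRCm38.p6); Ctsb, Ctsh, Galns, Asah1, Npc1, Atp6v1b2, Atp6v1c1, Atp6v1g1 and Atp6v1h had no entry in the table used.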

Additional observations from a re-analysis of the deposited data

How the results depend on the processing

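In JQ1 against MR 30 of the 38 called genes kept their call in every alternative, and in JQ1 against dBRD9 33 of 40; the numbers higher and lower changed by no more than 1.5 times except that 15 genes were lower under total-count scaling in each. That scaling turned the sign of 2 called genes in JQ1 against dBRD9 and of none in JQ1 against MR. Leaving out a library gave 32 to 33 higher and 6 to 7 lower against MR, and 31 to 35 and 7 to 9 against dBRD9. In dBRD9 against MR, where none of the 52 was called by edgeR or DESeq2 and 14 had an unadjusted p under 0.05, 1 gene was higher with no filter, 2 were higher and 1 lower in a fit of the 6 libraries compared, and 3 were higher and 2 lower in a fit of the 9 libraries without JQ1. In DEX+iBRD9 against MR (0 higher by edgeR and 1 by DESeq2, 4 lower) the counts were 1 higher under total-count scaling and under the threshold of the study, 3 higher with no filter, 7 higher and 10 lower with 6 libraries, 6 higher and 8 lower with 9 libraries, 0 lower with the Alb term and 0 to 4 lower on leaving out a library. In DEX+iBRD9 against dBRD9 (1 higher, 6 lower) they were 0 higher and 0 lower with the Alb term, 2 higher with 9 libraries, 3 lower under the threshold of the study, and 0 to 1 higher and 0 to 6 lower on leaving out a library. Tfe3 in dBRD9 against MR reversed to -0.021 with the Alb term, and Tfeb in JQ1 against MR to -0.17 under total-count scaling and to between -0.040 and 0.068 on leaving out a library; neither was called. The causes were not tested. Outside total-count scaling, the share over all genes was not taken for these alternatives, so their counts of the 52 cannot be set beside it. The other alternatives kept direction and call for the genes given in full, except Psap, Ctss and Atp6v1g1 in DEX+iBRD9 and Tcirg1, which gained a call in JQ1 against MR (total-count scaling) and in DEX+iBRD9 against MR (6 and 9 libraries).

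No paired analysis was possible because the library titles share no replicate numbers between groups. Libraries of 14875951 to 18067758 counts left standard errors with a median of 0.057 for the 52 genes in dBRD9 and DEX+iBRD9 against MR.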
